A study of Mus musculus with 4 samples.

Results

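The transcription factor p53, encoded by Trp53 in the mouse, and 9 genes of its pathway were followed in hematopoietic stem and progenitor cells that carry a frameshift allele of Asxl1. The 10 genes were chosen by name, as p53 itself, its inhibitors Mdm2, Mdm4 and Ppm1d, and its target genes Ccng1, Phlda3, Zmat3, Trp53inp1, Aen and Sesn2, of 13749 gene symbols listed in all. Messenger RNA was sequenced from LSK cells, the lineage-negative, Sca-1-positive, Kit-positive fraction of bone marrow. The knock-in (KI) libraries KI-1 and KI-2 carry the genotype Asxl1G643fs/+, heterozygous for the frameshift allele, and the labels name no Cre driver or transgene. The wild-type (WT) libraries WT-1 and WT-2 carry Asxl1+/+. All groups share the C57BL/6 strain and an age of 8 weeks, and no treatment was named. Cells came from 8 mice of each genotype, sorted on a flow cytometer, and the labels do not say whether the 2 libraries of a genotype are separate animals, separate pools or repeats of 1 pool. A p-value here reflects the spread of 4 libraries, and that spread may be technical.

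In unstressed cells p53 is kept low by the ubiquitin ligase Mdm2, helped by its relative Mdm4, which also blocks the transactivation domain of p53. DNA damage, ribosomal stress or oncogene signalling releases p53, which binds a response element built of repeated decamers and switches on genes of cell cycle arrest, DNA repair and apoptosis, among them Mdm2 itself. In hematopoietic stem cells p53 is known for holding cells in quiescence and for removing damaged cells. Much of the control of p53 acts on the protein, which RNA levels do not show.

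The listed FPKM (a level per transcript length and per library size) summed to between 324255 and 411542 per library. The sums were higher in number 2 of each genotype, and the sequencing depth is unknown. Asxl1 had 22.2 and 19.1 FPKM in KI libraries, against 20.8 and 18.8 FPKM in WT libraries, and this sum cannot check the allele, since reads of the mutated and the normal allele are counted together. All 8 LSK gate genes were listed in every library, for example Kit with 83.2 and 95.3 FPKM in KI libraries, against 81.9 and 105 FPKM in WT libraries. Of these 8, 1 had a positive and 7 a negative difference between KI and WT, none called. Of 14 markers of other cells, 9 were listed, with a summed level of 59.5 and 77.1 FPKM in KI libraries, against 60.6 and 70.5 FPKM in WT libraries. The B cell marker Ms4a1 and the endothelial marker Cdh5 were under 1 FPKM in each library. The myeloid marker Itgam had 20.7 and 20.1 FPKM in KI libraries, against 15.9 and 16.3 FPKM in WT libraries, and the part of such cells in the results was not tested. In such bulk samples fewer cells of a type and less RNA per cell cannot be told apart.

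The start regions of 5 of the 10 genes hold a match to the p53 decamer, the 10-letter repeat unit that p53 binds as a pair of copies, which is why they are shown here. Each line gives the RefSeq sequence (GRCm38.p6), read 5′ to 3′ on the strand of the gene, with the decamer in capitals.
Mdm2, chr10:117710925-117710954, minus strand: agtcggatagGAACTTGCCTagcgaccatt
Trp53, chr11:69580274-69580303, plus strand: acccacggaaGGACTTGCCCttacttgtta
Ccng1, chr11:40755452-40755481, minus strand: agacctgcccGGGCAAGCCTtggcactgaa
Ppm1d, chr11:85311112-85311141, plus strand: gggcgggggcGAGCTTGCTCttcttgactc
Aen, chr7:78895927-78895956, plus strand: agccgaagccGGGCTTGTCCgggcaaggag
The first base of the match lay at -186 from the start on which its window is built in Mdm2, -75 in Trp53, -185 in Ccng1 and -132 in Ppm1d, and at 11 in Aen, inside the transcript. In Trp53 and Ccng1 that start is not the outermost base of the gene span given further on but lies inside it. The window ran from 250 bases before to 50 bases after each start, and the decamer is its own reverse complement in pattern, so both strands were covered by 1 search. Of the 8 members matched to a window by symbol, Phlda3, Sesn2 and Mdm4 had no match in these windows. The table had no window for Zmat3 and Trp53inp1. A match was found in 60% of the 10 member windows and in 8.36% of all 32851 windows. Of 44 other p53 target genes, 35 had a window and 12 of these held the decamer, against 2582 of 27025 genes in all, 9.55%. For genes that regulate p53, 1 of 19 held it. A match describes these letters and does not show that p53 binds there.

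Trp53 was the most abundant of the 10 genes and overlapped in level between the genotypes. It lies at chr11:69580348-69591873 (GRCm38.p6). Its level was 98.5 and 133 FPKM in KI libraries, against 105 and 121 FPKM in WT libraries, so that the lowest and the highest value were both KI. The means were 116 ± 24.7 FPKM in KI and 113 ± 11.4 FPKM in WT (SD, n = 2 each). On the log2(FPKM + 1) scale, used for all differences here, KI minus WT was 0.020 with SE 0.26 and a 95% interval of -0.61 to 0.65 (limma across all genes, Benjamini-Hochberg adjusted p = 0.99998). The difference was -0.095 between the libraries numbered 1 and 0.14 between those numbered 2. The SE of 0.26 takes in the difference between the library numbers, as do the other SEs of KI minus WT given here. With the number as a term in limma, the SE for Trp53 was 0.087 and the interval -0.20 to 0.24. The labels do not say that the numbers pair the libraries. Trp53 stood at the 96.7th percentile of all gene symbols by mean level.

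**Figure D1:**
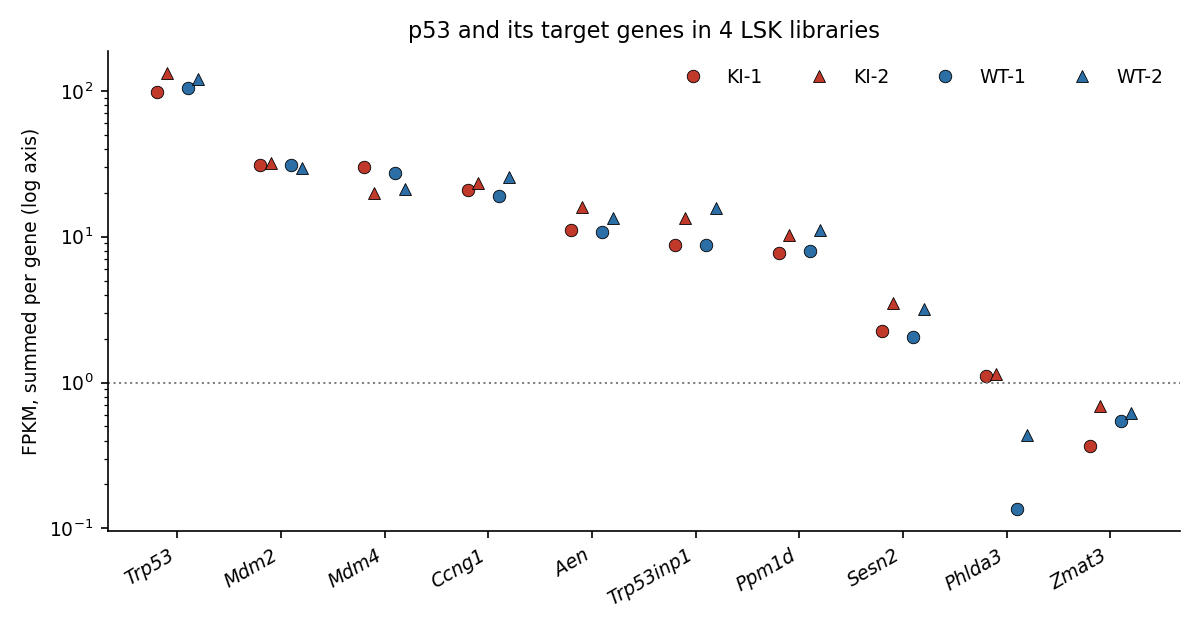
FPKM summed per gene (log axis) for the 10 genes in each library, KI in red and WT in blue, circles for number 1 and triangles for number 2, with a dotted line at 1 FPKM. Trp53 stands near 100 FPKM in every library, Phlda3 and Zmat3 lie around or under 1, and Phlda3 alone has both KI points above both WT points.

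None of the 8 members tested passed the threshold of 0.05 on the adjusted p. This was also so for the genes as a whole, of which 0 of 11083 passed, 0% in limma, while 47 had an unadjusted p under 0.05, 0.424%. Among the members the smallest unadjusted p from limma was 0.611, that of Aen. Of the tested members 6 had a positive and 2 a negative difference, and the median was 0.023, where that of all genes tested was 0.0075. Exact two-sided permutation tests over the libraries gave p between 0.333 and 1 for the 10 genes, and 0.333 is the smallest p that 2 against 2 allows. The direction of the members' median rested on which libraries entered, being -0.10 without WT-1, 0.18 without WT-2, 0.14 without KI-1 and -0.12 without KI-2.

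**Figure D2:**
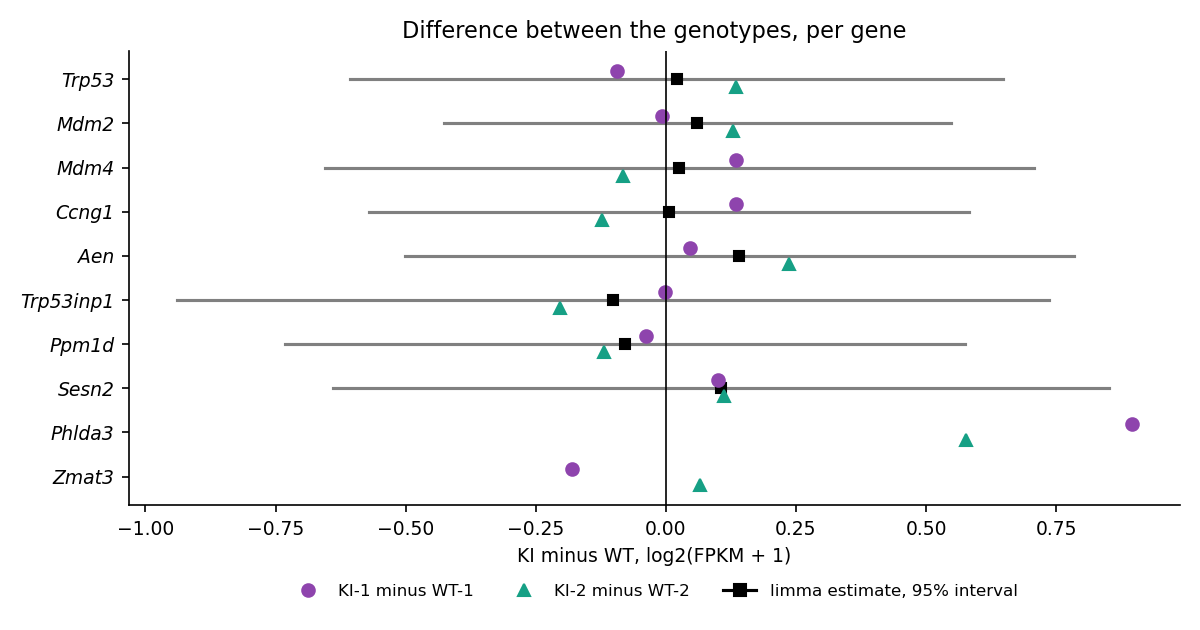
KI minus WT on the log2(FPKM + 1) scale for each gene, with the limma estimate and its 95% interval (black squares, grey lines), KI-1 minus WT-1 (circles) and KI-2 minus WT-2 (triangles). Every interval includes 0, the estimates run from -0.10 to 0.14, and Phlda3 and Zmat3, at a mean under 1 FPKM, were not tested and show the library differences alone.

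The inhibitors of p53 and cyclin G1 overlapped between the genotypes. Mdm2, the ubiquitin ligase that p53 itself induces, at chr10:117688875-117710758, had 31.0 and 32.2 FPKM in KI libraries, against 31.2 and 29.4 FPKM in WT libraries. All 4 values lay close together and the genotypes overlapped. The difference was 0.061 with SE 0.20 and a 95% interval of -0.43 to 0.55. Mdm4, at chr1:132986105-133030587, had 30.1 and 19.9 FPKM in KI libraries, against 27.4 and 21.1 FPKM in WT libraries. The libraries numbered 1 were the high ones in each genotype, and KI minus WT was 0.026 with SE 0.28. Ppm1d, at chr11:85311254-85347071, encodes the phosphatase Wip1, which removes activating phosphates from p53 and from the kinases upstream of it. Its level was 7.74 and 10.2 FPKM in KI libraries, against 7.97 and 11.2 FPKM in WT libraries, with overlap between the genotypes. The difference was -0.078 with SE 0.27. Ccng1, at chr11:40748552-40755309, encodes cyclin G1, a p53 target that recruits the phosphatase PP2A to Mdm2. It had 20.8 and 23.4 FPKM in KI libraries, against 18.9 and 25.5 FPKM in WT libraries, both KI values lying between the WT values. Its difference was 0.0062 with SE 0.24. By mean level Mdm2, Mdm4 and Ccng1 followed Trp53 in that order. Trp53 was above Mdm2, and Mdm2 above Mdm4 and Ccng1, in every library, while Ccng1 was above Mdm4 in KI-2 and WT-2. Aen, Trp53inp1, Ppm1d, Sesn2, Phlda3 and Zmat3 followed in that order, all below Ccng1 in every library. Trp53inp1 was above Ppm1d, Ppm1d above Sesn2 and Sesn2 above Phlda3 in every library. Trp53inp1 was above Aen in WT-2, and Zmat3 was above Phlda3 in WT-1 and WT-2.

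Among the effector genes Phlda3 was the only one whose genotypes did not overlap. Phlda3, at chr1:135766085-135769134, encodes a pleckstrin homology domain protein that holds back the kinase Akt at the membrane. Its level was 1.11 and 1.14 FPKM in KI libraries, against 0.135 and 0.434 FPKM in WT libraries. The means were 1.13 ± 0.0186 FPKM in KI and 0.285 ± 0.211 FPKM in WT (SD, n = 2 each), a ratio of 3.95, and KI minus WT was 0.90 between the libraries numbered 1 and 0.58 between those numbered 2. KI stood above WT without overlap in 8.03% of all gene symbols and below it in 8.32%, and 1 of 10 members above and 0 below is set against these shares. Among the 11083 genes tested the shares were 6.39% above and 7.06% below. Non-overlap was therefore more common among the genes under the minimum level for testing, where Phlda3 lay. At a mean of 0.705 FPKM Phlda3 fell under the minimum of 1 FPKM for testing. With no minimum, limma gave a difference of 0.74 with SE 0.16, an unadjusted p of 0.00558 and an adjusted p of 0.99998. In the authors' deposited table it had a signed fold of 1.48 of KI over WT, with p = 0.00626 and an adjusted p of 0.124. That fold rests on the deposited normalized log2 values, 1.03 and 0.969 in KI libraries, against 0.406 and 0.471 in WT libraries. It is not the same measure as the FPKM ratio of 3.95.

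The remaining effectors overlapped between the genotypes. Aen, at chr7:78895927-78911209, encodes a nuclease that promotes apoptosis. Its level was 11.1 and 15.9 FPKM in KI libraries, against 10.7 and 13.4 FPKM in WT libraries. KI was the higher one within each number, by 0.046 and 0.24, and the difference was 0.14 with SE 0.26. Sesn2, at chr4:132492804-132510456, encodes sestrin 2, a stress protein that restrains mTORC1. It had 2.27 and 3.53 FPKM in KI libraries, against 2.05 and 3.19 FPKM in WT libraries, a difference of 0.11 with SE 0.30. KI was again the higher one within each number, by 0.099 and 0.11, while each genotype spanned more than this between its own libraries. Trp53inp1, at chr4:11156441-11174379, encodes a stress protein that acts in p53-dependent cell death and in autophagy. Its level was 8.79 and 13.4 FPKM in KI libraries, against 8.79 and 15.6 FPKM in WT libraries, and the difference was -0.10 with SE 0.34. Zmat3, at chr3:32334792-32365665, encodes an RNA-binding zinc finger protein induced by p53. It had 0.365 and 0.694 FPKM in KI libraries, against 0.547 and 0.619 FPKM in WT libraries, was not tested for its low level and had both WT values between the KI values.

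The table lists 17 RefSeq transcripts of the 10 genes, and 5 genes have 2 or more of them. The Trp53 transcripts differ in the last coding exon, as the sequences below show, so that the proteins end differently. Each line begins with the last 20 bases of the exon they share, chr11:69590743-69590762 (GRCm38, plus strand), in lower case, and goes on in capitals with the coding bases of the last exon up to and including the stop codon.
NM_011640, last exon from chr11:69591350: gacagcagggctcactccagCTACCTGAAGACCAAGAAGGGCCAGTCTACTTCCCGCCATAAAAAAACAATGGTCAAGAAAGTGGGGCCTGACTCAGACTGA
NM_001127233, last exon from chr11:69591254: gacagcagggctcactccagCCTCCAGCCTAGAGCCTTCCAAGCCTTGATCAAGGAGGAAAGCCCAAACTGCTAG
NM_001127233 begins its last exon 96 bases earlier, which puts a stop codon in front of the usual end and gives 381 residues in place of 390. The mouse form with this end is known as alternatively spliced p53, and it lacks the basic regulatory end of the usual protein.

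The usual transcript NM_011640 had 92.1 and 127 FPKM in KI libraries, against 99.9 and 116 FPKM in WT libraries, with overlap. The alternatively spliced NM_001127233 had 6.40 and 5.98 FPKM in KI libraries, against 5.36 and 5.29 FPKM in WT libraries. Both KI values lay above both WT values, and the difference of 0.18 with SE 0.24 did not pass limma's test (adjusted p = 0.99998). Its share of the summed Trp53 level was 6.50% and 4.48% in KI libraries, against 5.09% and 4.36% in WT libraries, so that the shares overlapped. In the authors' deposited table this transcript had a signed fold of 1.11 with p = 0.00912 and an adjusted p of 0.129.

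The Mdm2 transcripts lay on opposite sides of the genotype comparison. Their levels, like those of other genes with several listed transcripts, rest on the authors' estimate of how reads divide between overlapping transcripts. NM_010786 had 21.9 and 22.5 FPKM in KI libraries, against 18.6 and 19.3 FPKM in WT libraries, with no overlap. NM_001288586 had 9.12 and 9.79 FPKM in KI libraries, against 12.6 and 10.1 FPKM in WT libraries, again with no overlap. The differences were 0.22 with SE 0.20 and -0.23 with SE 0.24, and limma gave an adjusted p of 0.99998 for each. NM_010786 made up 70.6% and 69.6% of the Mdm2 level in KI libraries, against 59.7% and 65.6% in WT libraries. In the authors' deposited table its signed fold was 1.12 with p = 0.00264, and the adjusted p was 0.117.

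The Aen transcripts did so too, with a wider spread. NM_026531 had 4.55 and 9.02 FPKM in KI libraries, against 3.42 and 3.17 FPKM in WT libraries. KI-2 was far above the other 3 values, and both KI values were above WT. NM_001162939 had 6.51 and 6.88 FPKM in KI libraries, against 7.26 and 10.2 FPKM in WT libraries, with both KI values below WT. The differences were 0.80 with SE 0.36 and -0.32 with SE 0.26, each with an adjusted p of 0.99998 in limma. The share of NM_026531 was 41.1% and 56.7% in KI libraries, against 32.0% and 23.8% in WT libraries. RefSeq holds 4 curated transcripts of Aen, of which these 2 were in the table, and the division of reads between overlapping transcripts was the authors' estimate.

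**Figure D3:**
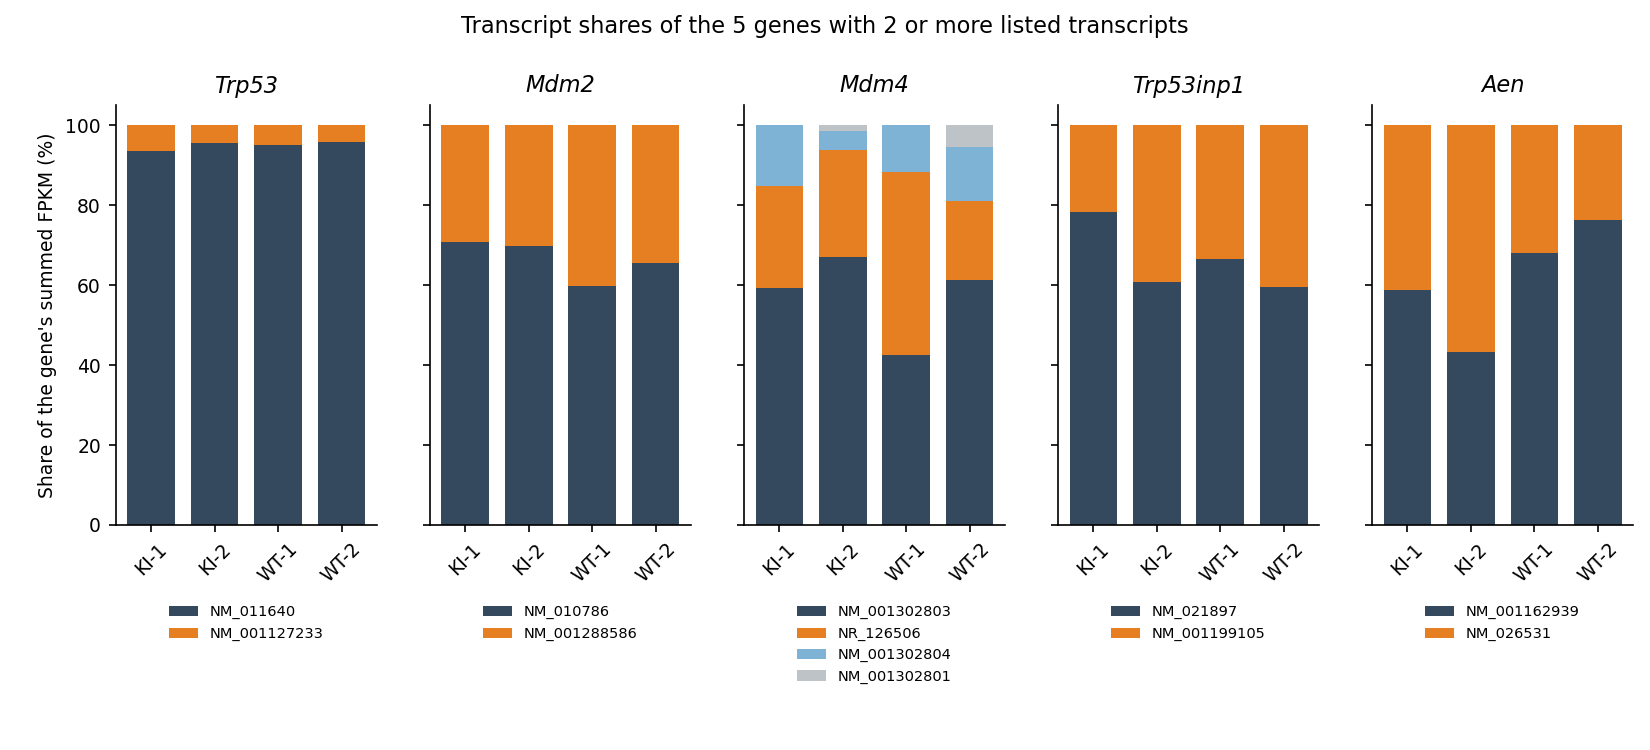
Share of the summed FPKM of a gene, in percent, that each listed transcript makes up in KI-1, KI-2, WT-1 and WT-2, for the 5 genes with 2 or more listed transcripts. The share of NM_010786 in Mdm2 and of NM_026531 in Aen is higher in both KI bars than in both WT bars, while the Trp53 bars are nearly all NM_011640.

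Mdm4 had 4 of its 6 curated RefSeq transcripts in the table. NM_001302803, the highest by mean and in each library but WT-1, had 17.9 and 13.3 FPKM in KI libraries, against 11.6 and 12.9 FPKM in WT libraries, with no overlap and a difference of 0.31 with SE 0.25. The noncoding NR_126506 had 7.65 and 5.32 FPKM in KI libraries, against 12.5 and 4.17 FPKM in WT libraries, where WT-1 was the highest and WT-2 the lowest. NM_001302804 had 4.60 and 0.931 FPKM in KI libraries, against 3.19 and 2.84 FPKM in WT libraries. NM_001302801 was low in each library, at 0.0083 and 0.307 FPKM in KI, against 0.0161 and 1.16 FPKM in WT. The Trp53inp1 transcripts NM_021897 and NM_001199105 overlapped between the genotypes. NM_021897 had 6.87 and 8.16 FPKM in KI libraries, against 5.85 and 9.30 FPKM in WT libraries. NM_001199105 had 1.92 and 5.27 FPKM in KI libraries, against 2.95 and 6.31 FPKM in WT libraries.

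In all, 5 of the 17 member transcripts stood above WT in KI without overlap and 2 stood below. Mdm2 and Aen each gave 1 above and 1 below, and the levels of such a pair divide the reads of 1 gene. The Phlda3 transcript, among those above, lay under the minimum of 1 FPKM for testing. Over all transcripts listed the shares were 9.5% above and 9.82% below. Of the 12 shares of transcripts within these 5 genes, 2 were higher and 2 lower in KI without overlap, the pairs of Mdm2 and Aen, and since the shares of a pair add up to 100% each pair is 1 observation. Over the 2926 genes with 2 or more listed transcripts and a mean of at least 1 FPKM, 13.5% of 7423 shares were higher and 13.7% lower without overlap. No member transcript passed limma's test across transcripts, where 0 of 13826 did, 0%, and 156 had an unadjusted p under 0.05, 1.13%. In the authors' deposited table an adjusted p under 0.05 was held by 3 transcripts, 0.0161%, none of them a member, and an unadjusted p under 0.05 by 4041, 21.6%. Of the members, 5 transcripts were among these 4041. Beside NM_010786 of Mdm2, NM_001127233 of Trp53 and the Phlda3 transcript they were the Sesn2 transcript, with a signed fold of 1.06 and an adjusted p of 0.193, and NM_001199105 of Trp53inp1, with a signed fold of -1.18 and an adjusted p of 0.195. The deposited log2 values behind that test no longer hold the difference between the libraries numbered 1 and 2, whose SD over transcripts was 0.00448, where it was 0.475 on the log2(FPKM + 1) scale. The deposited test takes no account of that removal. Its p-values, among them those given above for Phlda3, Trp53 and Mdm2, therefore tend to be too small. No corrected p-value was computed for a single transcript.

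Other genes of the pathway gave 0 calls in either direction. The 44 further p53 target genes were all listed, 42 were tested, and 22 had a positive and 20 a negative difference, with a median of 0.026. None had an unadjusted p under 0.05 in limma. Of the 44, 2 stood above WT in KI without overlap and 5 below, where the shares over all gene symbols were 8.03% and 8.32%.

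Of the 12 genes of arrest and growth, 11 were tested, 5 with a positive and 6 with a negative difference, and the median was -0.012. Cdkn1a, the p21 inhibitor of cyclin-dependent kinases and a classical p53 target, had 26.2 and 40.9 FPKM in KI libraries, against 31.1 and 21.2 FPKM in WT libraries. KI-2 was the highest and WT-2 the lowest, and the difference was 0.34 with SE 0.31. Tigar, listed as 9630033F20Rik, encodes a phosphatase that lowers glycolysis. It had 2.04 and 3.17 FPKM in KI libraries, against 1.35 and 2.25 FPKM in WT libraries, a difference of 0.37 with SE 0.31. Plk3, a stress kinase, had 10.9 and 6.47 FPKM in KI libraries, against 21.4 and 6.22 FPKM in WT libraries, and its difference of -0.43 with SE 0.55 became 0.39 without WT-1. The summed level of the 16 immediate early genes, among them Fos, also stood apart in WT-1. It was 5371 and 3772 FPKM in KI libraries, against 10425 and 3781 FPKM in WT libraries, and not each of the 16 was highest in WT-1. Of these 16 genes, 2 had a positive and 14 a negative difference, and their part in the result was not tested. Prkab1, a subunit of the energy sensor AMPK, had 22.7 and 20.7 FPKM in KI libraries, against 26.2 and 22.3 FPKM in WT libraries.

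Of the 16 genes of cell death, 15 were tested, 9 with a positive and 6 with a negative difference, and the median was 0.11. Dram1, a lysosomal protein of autophagy, had 1.48 and 1.34 FPKM in KI libraries, against 0.534 and 1.02 FPKM in WT libraries, with no overlap and a difference of 0.45 with SE 0.28. Pidd1, listed as Lrdd, was the other gene above WT. Bbc3, which encodes the BH3-only protein Puma, had 1.63 and 2.05 FPKM in KI libraries, against 2.76 and 2.37 FPKM in WT libraries, with no overlap and a difference of -0.33 with SE 0.26. Perp, a membrane protein of desmosomes and apoptosis, had 0.864 and 1.63 FPKM in KI libraries, against 1.69 and 2.09 FPKM in WT libraries, a difference of -0.38 with SE 0.30. Eda2r, the third gene below WT, was under 1 FPKM in each library. Pmaip1, which encodes the BH3-only protein Noxa, had 4.14 and 3.55 FPKM in KI libraries, against 4.60 and 1.16 FPKM in WT libraries. Its difference of 0.48 with SE 0.46 became -0.21 without WT-2.

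Of the 16 genes of DNA repair and metabolism, all were tested, 8 with a positive and 8 with a negative difference, and the median was 0.015. Ddb2, the damage-sensing subunit of nucleotide excision repair, had 6.08 and 7.77 FPKM in KI libraries, against 8.25 and 8.81 FPKM in WT libraries. It was below WT without overlap, as was the translesion polymerase Polk, and the difference was -0.27 with SE 0.23. Steap3, a metalloreductase, had 4.81 and 7.73 FPKM in KI libraries, against 3.52 and 5.22 FPKM in WT libraries, a difference of 0.43 with SE 0.31. Dcxr, a carbonyl reductase, had 3.04 and 8.93 FPKM in KI libraries, against 2.33 and 5.29 FPKM in WT libraries. Ak1, an adenylate kinase, had 0.406 and 3.90 FPKM in KI libraries, against 2.56 and 4.60 FPKM in WT libraries. Its difference of -0.77 with SE 0.60 became 0.13 without KI-1, the lowest library.

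Of 22 regulators of p53, 19 were listed and tested, 9 with a positive and 10 with a negative difference, and the median was -0.014. Ep300, an acetyltransferase that works as a coactivator of p53, had 25.0 and 23.5 FPKM in KI libraries, against 23.0 and 22.0 FPKM in WT libraries, with no overlap and a difference of 0.10 with SE 0.20. Chek2, a checkpoint kinase that phosphorylates p53, had 13.8 and 13.1 FPKM in KI libraries, against 14.4 and 15.1 FPKM in WT libraries, with no overlap and a difference of -0.13 with SE 0.20. Atm, the kinase that senses double-strand breaks, had 10.8 and 8.36 FPKM in KI libraries, against 9.15 and 7.40 FPKM in WT libraries. Kat5, an acetyltransferase of p53, had 32.9 and 34.9 FPKM in KI libraries, against 31.8 and 42.6 FPKM in WT libraries.

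**Figure D4:**
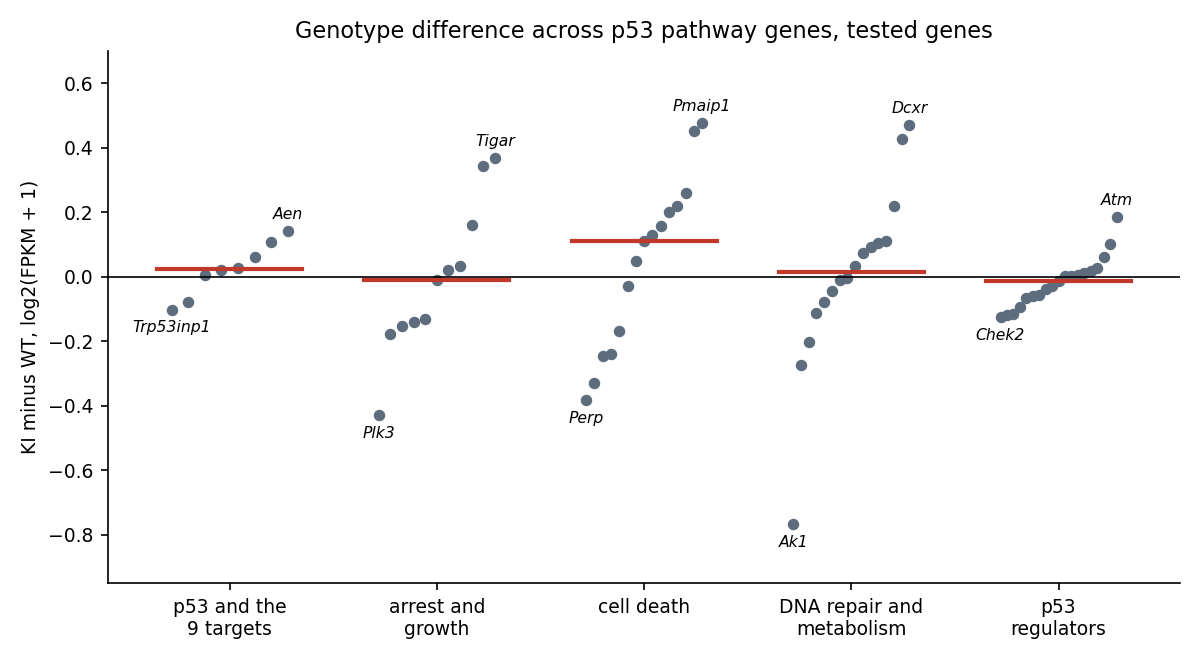
KI minus WT on the log2(FPKM + 1) scale for each tested gene of 5 lists, ordered by value within a list, with the median as a red line and the genes at the ends named. The medians lie between -0.014 and 0.11, each list has genes on both sides of 0, and no point is a call.

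Between the libraries numbered 2 and those numbered 1, 5 of the 8 tested members passed the threshold. The labels do not say what the number stands for. In a limma fit on the number alone, 4 members, Trp53, Trp53inp1, Aen and Ppm1d, were higher in number 2 and 1, Mdm4, was lower. This is set against 35.6% of all genes tested that were higher and 4.6% that were lower. The median of all genes was 0.27 in this contrast, where 3942 were higher and 510 lower, and after each library was scaled to the same median 1011 genes were higher and 1152 lower.

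Mdm4 was the only member called lower in number 2. Its level was 19.9 and 21.1 FPKM in the libraries numbered 2, KI-2 and WT-2, against 30.1 and 27.4 FPKM in KI-1 and WT-1, with no overlap. Number 2 minus number 1 was -0.47 with SE 0.093 (limma, adjusted p = 0.0114), and -0.73 after median scaling (adjusted p = 0.00757). The Mdm4 transcripts differed in this. NM_001302803 had 13.3 and 12.9 FPKM in KI-2 and WT-2, against 17.9 and 11.6 FPKM in KI-1 and WT-1, with overlap. NM_001302804 had 0.931 and 2.84 FPKM, against 4.60 and 3.19 FPKM. The noncoding NR_126506 had 5.32 and 4.17 FPKM, against 7.65 and 12.5 FPKM. NM_001302801 was higher in number 2, at 0.307 and 1.16 FPKM, against 0.0083 and 0.0161 FPKM. Trp53inp1 had 13.4 and 15.6 FPKM in KI-2 and WT-2, against 8.79 and 8.79 FPKM in KI-1 and WT-1. It was higher in number 2 by 0.66 with SE 0.11 (adjusted p = 0.0076), and by 0.40 after median scaling (adjusted p = 0.0473).

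For Trp53 the difference was 0.32 with SE 0.084 (adjusted p = 0.0273), and after median scaling it was 0.062 (adjusted p = 0.661). Aen was higher in number 2 by 0.39 (adjusted p = 0.0372) and Ppm1d by 0.40 (adjusted p = 0.0284), and after median scaling neither passed, with adjusted p of 0.448 and 0.378. Mdm2 had a difference of -0.015 (adjusted p = 0.899), or -0.27 after median scaling (adjusted p = 0.0774). Sesn2 and Ccng1 missed the threshold, with adjusted p of 0.0513 and 0.0577. Ccng1 passed with a minimum mean of 5 FPKM and without KI-1. Sesn2 passed with no trend in the prior variance, where Trp53 and Aen did not, and with no minimum Aen and Ppm1d did not. The count of members called differed with the library left out, as did that of all genes. It was 4 members with 4493 genes without WT-1, 0 with 1414 without WT-2, 5 with 4808 without KI-1, and 1, Trp53inp1, with 1162 without KI-2.

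**Figure D5:**
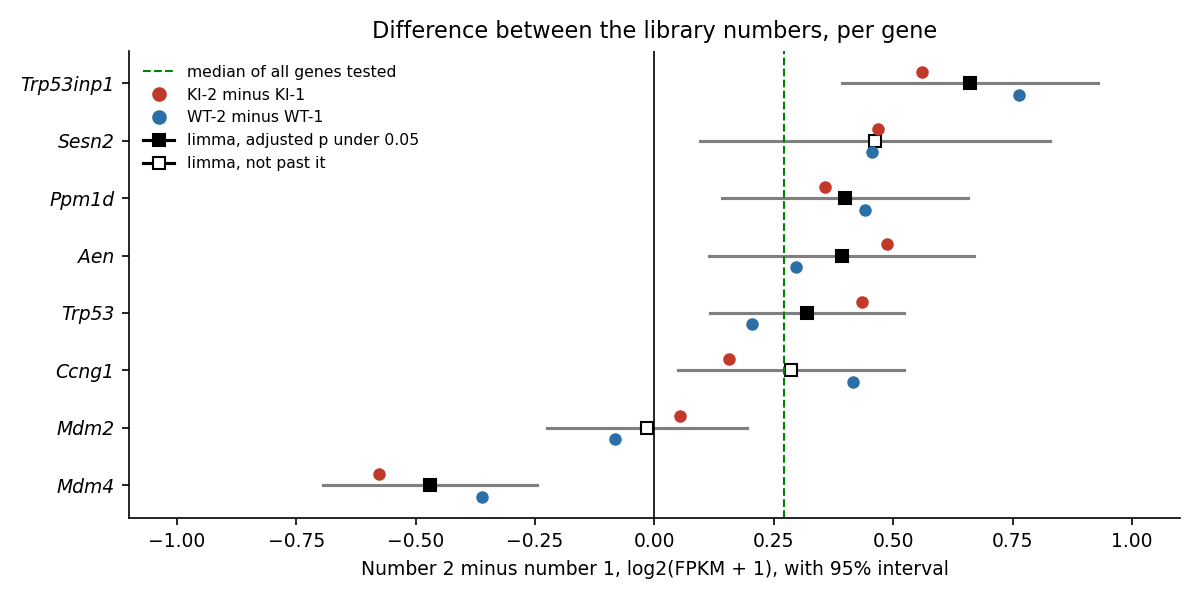
Number 2 minus number 1 on the log2(FPKM + 1) scale for the 8 tested members, with KI-2 minus KI-1 in red, WT-2 minus WT-1 in blue, the limma estimate with its 95% interval (filled where the adjusted p is under 0.05), and the median of all genes tested as a dashed line at 0.27. Trp53 and Ccng1 lie near the median of all genes. Sesn2, Ppm1d, Aen and, highest, Trp53inp1 lie above it, and Mdm2 and, lowest, Mdm4 lie below 0.

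The genes whose profile over the 4 libraries was most like that of Trp53 were Smad2, Golga7 and Icmt. Likeness was the root mean square distance between log2(FPKM + 1) values, each gene centred on its own mean, over 4 libraries. The distances were 0.0096 for Smad2, 0.013 for Golga7 and 0.013 for Icmt, where 1% of tested genes lay within 0.037 and 50% within 0.17. Smad2, for example, had 6.86 and 9.69 FPKM in KI libraries, against 7.48 and 8.84 FPKM in WT libraries, in the same order as Trp53. With 4 libraries, many genes come close to any profile, and the likeness is a description.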

How the data were processed

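Per the submitters' processing notes, TopHat and Cufflinks were used with mm10 (GRCm38), with no versions given. The authors deposited FPKM per RefSeq transcript (18691 rows), normalized log2 values with their spread, and a comparison of KI over WT with signed folds, t statistics (a score), p-values and adjusted p-values. The sources used here do not give the normalization. No FPKM was 0. Depth is unknown, so counting intervals are left out.

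FPKM was summed per symbol, since the table was per transcript and not per gene as assumed. Genes with a mean of at least 1 FPKM (11083, with 8 of the 10 members) were tested as log2(FPKM + 1), which understates changes of low genes. The fit used limma 3.58.1 in R 4.3.3 with a trended prior variance and genotype alone, two-sided, with Benjamini-Hochberg adjustment at 0.05 over all genes. The library number was tested likewise, and so were transcripts, a fit chosen after seeing the data. Scripts were tested on simulated data.

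The members and gene lists were chosen with earlier results of these data known. The text names all members, up to 4 genes with the smallest unadjusted p per target or regulator list, Asxl1, the 3 genes most like Trp53 and up to 3 genes per marker list. Pidd1, Eda2r and Polk were named after their values were seen. Tigar and Pidd1 were matched by synonym. Rpl11, Trp63, Trp73, Cd3e, Cd8a, Ly6g, Hbb-b1 and Cxcl12 were not analysed here. Alternatives were the pseudocount, filter, scaling, deposited values, trend, replicate block and leaving out each library.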

Additional observations from a re-analysis of the deposited data

How the results depend on the processing

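No member, other p53 target gene or p53 regulator was called between the genotypes under any alternative run, among them a pseudocount of 0.1, other filters, median and quantile scaling, the deposited log2 values and leaving out each library. With the replicate number as a block, 1 gene was called, no member, and 787 genes, 7.1%, had an unadjusted p under 0.05, where 47 did without the block. The smallest unadjusted p of a member was then 0.226, and the members' adjusted p lay between 0.799 and 0.991; no transcript was called. The numbers are not said to pair the libraries, and with 2 pairs the deviations of same-numbered libraries correlated with r = 0.691 over 11083 genes. With the deposited log2 values the members' median was -0.0012, Mdm4 -0.089 and Ccng1 -0.0084; with quantile scaling Ccng1 was -0.0061 and Trp53 NM_011640 -0.0018. For number 2 minus number 1, 3785 genes and 3 members were called with no filter, 4040 genes and 6 members with a mean FPKM of at least 5, 3967 genes and 4 members with no trend, 2163 genes and 2 members after median scaling and 2187 genes and 2 members after quantile scaling. For these changes the cause was not tested.

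Leaving out each library in turn gave 7 to 37 genes called between the genotypes (37 without WT-2), the lone library being taken to vary like the others, a members' median of -0.12 to 0.18, and 1162 to 4808 genes and 0 to 5 members called between the numbers. The difference between the genotypes changed sign for Trp53 (-0.20 to 0.24), Mdm4 (-0.26 to 0.31), Ccng1 (-0.20 to 0.21), Trp53inp1 (-0.48 to 0.28), Aen (-0.10 to 0.38), Sesn2 (-0.13 to 0.34) and Ppm1d (-0.30 to 0.14), and not for Mdm2 (0.019 to 0.10). It also did for Plk3 (-1.25 to 0.39), Pmaip1 (-0.21 to 1.16), Ak1 (-1.67 to 0.13), Dcxr (-0.18 to 1.12) and Kat5 (-0.32 to 0.089), and for the transcripts Trp53 NM_011640 (-0.22 to 0.24), Mdm4 NM_001302804 (-1.05 to 0.48), Mdm4 NR_126506 (-0.87 to 0.52), Trp53inp1 NM_001199105 (-0.88 to 0.22) and Trp53inp1 NM_021897 (-0.28 to 0.31). The depth of the libraries is unknown, so no limit that it sets can be given.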
